A study of Mus musculus with 33 samples.

Results

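Plasmacytoid dendritic cells (pDC) were taken from single-cell RNA sequencing of mouse bone, brain, liver and lung as cells in which at least 3 of 4 genes, Siglech, Ccr9, Cox6a2 and Klk1, had at least 1 unique molecular identifier (UMI, a tag that marks 1 captured RNA molecule). Barcodes were kept if they held 500 or more UMIs, 200 or more genes and no more than 15% of UMIs from mitochondrial genes. The rule found 573 pDC among 55366 kept cells of 32 samples, or 1.03%, and 347 of them held all 4 genes. The cells were therefore chosen by their own RNA, and every level of these 4 genes below describes the choice.

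Plasmacytoid dendritic cells are round, blood-borne cells that read viral nucleic acids through endosomal Toll-like receptors and can release large amounts of type I interferon. The E-box-binding transcription factor Tcf4 (E2-2) sets and keeps their identity, with Irf8, Spib, Runx2 and Bcl11a among its partners. They form in the bone marrow and leave it through the blood for other organs.

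The study used SAMENT niche labelling, a method in which an enzyme carried by tumour cells puts biotin on the cells near them. After labelling for about 10 h, femurs and tibias, brains, livers and lungs were dissociated with collagenase, red cells were lysed where present, and biotin positive and biotin negative cells were sorted apart. All 32 samples came from mice given an intracardiac injection and fell into 8 groups of 4, a positive and a negative sort for each of the 4 tissues. A further pooled bone experiment, which the labels call IIA, held 6 positive and 6 negative hashtagged samples with 22362 kept cells, and the rule above was applied to it unchanged. The sources used here do not name the strain, age or tumour line and no uninjected group was analysed here; nothing says that replicate numbers mark separate animals, so the p-values below measure the spread between these samples, which may be technical.

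Total UMIs per sample ran from 482617 to 44834665 and the median per cell from 2606 to 11313.5. A median pDC held 5751 UMIs, against 5233 in the other cells. Of the 573 pDC, 530 were biotin negative and 43 biotin positive; biotin negative bone replicate 1 alone gave 34.9% of all pDC, and 5 samples held none. Intracardiac libraries shared 325 cell barcodes, on 650 cells, of which 6 were pDC; no shared barcode was a pDC in both libraries.

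Siglech encodes a sialic acid-binding receptor that signals through the adaptor Tyrobp, Ccr9 a receptor for the gut and thymus chemokine Ccl25, Cox6a2 a cytochrome c oxidase subunit and Klk1 a secreted serine protease. Upstream sequence is shown for Siglech, Ccr9 and Klk1, the rule genes with an entry in the promoter table used here, because they define the cells and because Tcf4 belongs to the proteins that bind E-box motifs. The 250 bases before the annotated start are given 5′ to 3′ on the plus strand, from RefSeq on GRCm38.p6, the assembly that mm10 is made from. They lie at chr7:55767934-55768183 for Siglech, chr9:123766961-123767210 for Ccr9 and chr7:44225110-44225359 for Klk1. Capitals mark CAGGTG read on either strand, which appears as CACCTG where it lies on the minus strand.
Siglech: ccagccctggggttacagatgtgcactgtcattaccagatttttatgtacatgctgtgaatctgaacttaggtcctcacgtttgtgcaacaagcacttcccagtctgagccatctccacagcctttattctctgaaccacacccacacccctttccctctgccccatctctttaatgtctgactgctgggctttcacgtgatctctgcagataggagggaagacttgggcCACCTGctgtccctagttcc
Ccr9: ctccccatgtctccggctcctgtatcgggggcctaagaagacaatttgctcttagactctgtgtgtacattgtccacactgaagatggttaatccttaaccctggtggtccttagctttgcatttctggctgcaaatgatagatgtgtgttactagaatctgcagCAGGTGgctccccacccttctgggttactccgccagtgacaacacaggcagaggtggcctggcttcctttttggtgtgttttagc
Klk1: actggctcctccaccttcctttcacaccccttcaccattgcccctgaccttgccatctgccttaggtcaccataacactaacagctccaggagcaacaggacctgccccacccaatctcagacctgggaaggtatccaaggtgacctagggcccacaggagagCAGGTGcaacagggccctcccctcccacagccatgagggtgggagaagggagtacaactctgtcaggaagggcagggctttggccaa
The motif began 20 bases before the start of Siglech, 85 bases before that of Ccr9 and 87 bases before that of Klk1. It was found in 17.2% of 32851 promoters of the same length, and in at least 1 promoter of 19.4% of 27025 genes. Of 27 listed pDC identity and transcription factor genes, 19 had a promoter entry and 4 of these held the motif, namely Bst2, Cbfa2t3, Cd300c and Irf8. A match of letters is a description and no evidence of binding.

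Siglech (ENSMUSG00000051504) had a UMI in 100% of pDC, against 0.233% of 3865 T cells, a class that should lack it, with median depths of 5751 UMIs in pDC and 3544 in T cells. Cox6a2 (ENSMUSG00000030785) had a UMI in 97.4% of pDC and 0.31% of T cells, and Ccr9 (ENSMUSG00000029530), which some T cells use, in 95.5% and 4.50%. Klk1 (ENSMUSG00000063903) was the least even of the 4, with a UMI in 67.7% of pDC and 0.129% of T cells. It was found in 59.9% of the pDC of biotin negative bone, 58.7% of those of biotin negative brain and 86.1% of those of biotin negative liver. The share of pDC holding all 4 genes followed it, at 54.3%, 49.2% and 77.8%.

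Just outside the rule lay 212 cells with 2 of the 4 genes, of which 76.4% held Siglech with Cox6a2. Biotin negative bone had 48 of them, biotin negative brain 25, biotin negative liver 21 and biotin negative lung 9. Biotin positive brain had 96, against 1 pDC, and 75 of the 96 came from replicate 4. All 96 held Siglech, 91 held Cox6a2, 4 Ccr9 and 1 Klk1, and 96 of 96 held at least 3 of the macrophage genes C1qa, C1qb, C1qc and Mrc1. Siglech, which microglia also express, had a UMI in 25.9% of the other kept cells of biotin positive brain, and 39.7%, 83.7%, 37.7% and 55.5% of the cells of its 4 replicates fell in the macrophage class. In biotin positive brain, then, the cells just outside the rule carried macrophage genes, which 2 of 573 pDC did.

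**Figure D1:**
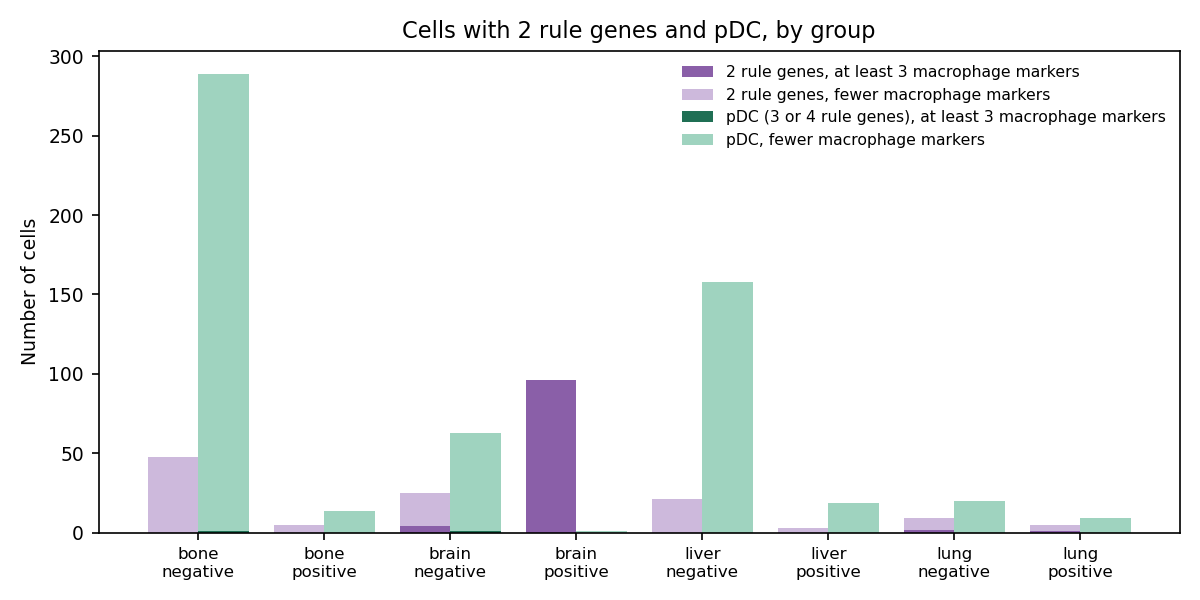
Number of cells per group with 2 of the 4 rule genes and with 3 or 4 of them (pDC). Biotin positive brain has 96 cells with 2 rule genes and 1 pDC, while biotin negative bone has 48 and 289.

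The mean pDC share was lower in the biotin positive sort of each tissue, but no difference passed the exact test after adjustment. In bone, the share of kept cells was 6.75%, 1.63%, 1.23% and 0.485% in biotin negative replicates 1 to 4, and 0.398%, 0.098%, 0.645% and 0.116% in biotin positive ones. The groups overlapped only in that positive replicate 3 lay above negative replicate 4. The means were 2.53% ± 2.86 (SD, n = 4) and 0.314% ± 0.260 (SD, n = 4), which differ by -2.21 percentage points (two-sided exact permutation test, p = 0.0571, adjusted over the 4 tissues 0.114). The positive sample was the lower in 4 of 4 same-numbered pairs. Without biotin negative replicate 1 the difference was -0.801 percentage points.

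Brain gave 2.10%, 0.137%, 0.273% and 0.525% in biotin negative replicates and 0.181%, 0%, 0% and 0% in positive ones, whose counts of 0 allow shares of up to 0.444%, 0.968% and 0.448%. A single positive pDC, in replicate 1, made the groups overlap. The difference of the means was -0.714 percentage points (0.0453% ± 0.0906 against 0.759% ± 0.908, SD, n = 4 each; exact permutation p = 0.0571, adjusted 0.114). The positive sample was again lower in 4 of 4 pairs.

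Liver gave 1.96%, 1.805%, 2.96% and 0.079% in biotin negative replicates and 1.065%, 0.097%, 0.673% and 0% in positive ones. Replicate 4 was the lowest of both sorts, and its positive sample held 94 cells, which allows a share of up to 3.19%. The means were 0.459% ± 0.502 and 1.70% ± 1.20 (SD, n = 4 each), which differ by -1.24 percentage points (exact permutation p = 0.114, adjusted 0.152), with the positive sample lower in 4 of 4 pairs. Lung held few pDC in either sort, 0.0952% ± 0.0727 in positive and 0.183% ± 0.0938 in negative samples (SD, n = 4 each), a difference of -0.0876 (exact permutation p = 0.2, adjusted 0.2), lower in 3 of 4 pairs. The smallest p that 4 samples against 4 can give is 0.0286, and none of the 4 tissues passed after adjustment.

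Cell numbers were also compared with edgeR's quasi-likelihood test, in a separate fit for each tissue that shares its spread over the cell classes. By this test pDC fell in biotin positive bone by 3.02 on the log2 scale (adjusted p = 0.0108) and in biotin positive brain by 3.81 (adjusted p = 0.0108). Values for liver (-1.61, adjusted p = 0.144) and lung (-0.70, adjusted p = 0.475) did not pass. Same-numbered positive and negative samples deviated together in bone, brain and liver. With the replicate number as a block the edgeR values were -2.90 in bone and -3.90 in brain (adjusted p = 0.0161 each), -2.06 in liver, which then passed (adjusted p = 0.0191), and -0.68 in lung (adjusted p = 0.460). The exact test and edgeR thus differed on bone and brain, and with the block on liver as well.

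**Figure D2:**
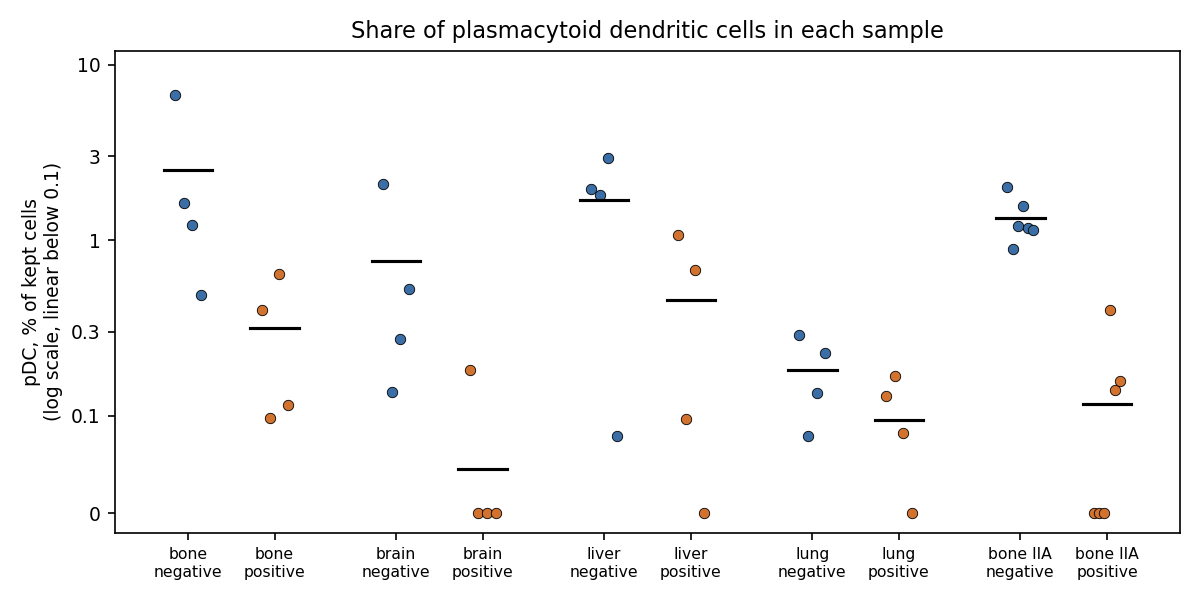
Percent of kept cells that were pDC in each sample, by tissue and biotin sort, with group means. Biotin positive samples reach at most 1.065%, and biotin negative bone spans 0.485% to 6.75%.

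The bone experiment labelled IIA gave lower pDC shares in positive samples as well. Its 6 negative samples held 2.001%, 0.891%, 1.21%, 1.56%, 1.18% and 1.15% pDC, and its 6 positive samples 0%, 0%, 0%, 0.402%, 0.140% and 0.157%. All positive samples lay below all negative ones. pDC fell from 1.33% ± 0.392 to 0.116% ± 0.158 (SD, n = 6 each), 11.4-fold, with an exact permutation p of 0.00216, the smallest that 6 against 6 can give, and the positive sample was lower in 6 of 6 pairs. In all, 231 of 17473 negative and 5 of 4889 positive cells were pDC.

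Among biotin negative samples, bone had the highest mean share of the 4 tissues, 2.53% ± 2.86 (SD, n = 4) against 0.881% ± 1.02 (SD, n = 12) in the others, but the difference of 1.64 percentage points lay within the spread (exact permutation p = 0.175). Without bone replicate 1 the difference was 0.235 (exact permutation p = 0.699). Neutrophils made up 20.1%, 57.7%, 60.1% and 78.2% of the kept cells of bone replicates 1 to 4, in the opposite order to the pDC share. Of the cells outside the neutrophil class, pDC were 8.45%, 3.86%, 3.08% and 2.23%, and on that denominator, chosen after the data were seen, the difference was 3.12 percentage points (exact permutation p = 0.0198). On the same denominator biotin positive bone held 0.712%, 0.159%, 1.33% and 0.441%, below all of its negative samples, with means that differ by -3.74 percentage points (exact permutation p = 0.0286, adjusted 0.0571).

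The transcription factors that define the lineage stood well above the rest of each sample. Over the 10 samples with at least 10 pDC, Tcf4 was at 1608 ± 224 CPM (a gene's UMIs scaled to a common library total; SD, n = 10) in pDC and 62.8 in the other cells, Irf8 at 2746 ± 420 against 134, and Runx2 at 648 ± 126 against 18.1. Spib (209 ± 49.4 against 10.5) and Bcl11a (557 ± 75.5 against 30.6) followed them. Ratios were taken after 10 CPM was added to both sides. Of the 3616 genes with a UMI in at least 20% of pDC, 28.4% were above the other cells in every sample (median ratio 1.28). Of 8 lineage factors, 7 were above the other cells in every sample, with a median ratio of 12.3. The exception was Zeb2, a repressor needed for pDC and monocyte development, higher in 7 of 10 samples. Because the rule chose the cells by their RNA, these ratios are descriptions without a test.

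Surface and effector genes of the lineage gave the same picture. Of 19 identity genes, 16 were higher than in the other cells in every sample, with a median ratio of 14.1, against 28.4% and 1.28 for all 3616 genes with a UMI in at least 20% of pDC. Bst2, the tetherin that the antibody PDCA-1 recognises, led with 3885 ± 703 CPM against 71.6, a ratio of 47.7. Cd300c, an activating receptor of the CD300 family, was at 279 ± 70.3 against 1.24, Ly6d, a surface marker of lymphoid progenitors, at 3020 ± 992 against 110.5, and Pacsin1, an adaptor of membrane trafficking, at 200.1 ± 46.8 against 1.73. Ly6c2 (1311 ± 396 against 866), Mzb1 and Cdh1 were the 3 genes not higher throughout.

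After the 4 rule genes, the 20 genes with the largest ratios also included Gm21762 (28.5), Klk1b27 (26.8), Cd209d (23.7), Sh3bgr (21.3), Upb1 (20.9), Rnase6 (19.3), P2ry14 (17.3), Cd7 (17.0) and Smim5 (16.3). Upb1 is an enzyme of pyrimidine breakdown, Rnase6 a secreted ribonuclease and P2ry14 a receptor for UDP-sugars. Klk1b27 is a near copy of Klk1, so how reads were split between them is uncertain. The same rule chose the cells of the 6 biotin negative IIA samples, sequenced from the 5′ end, so the high ratios of the 4 rule genes there follow from the choice. Besides these, Pacsin1, Bst2, Tcf4, Cd300c and Runx2 were among the 11 genes with the largest ratios, and Irf8 was the 16th.

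**Figure D3:**
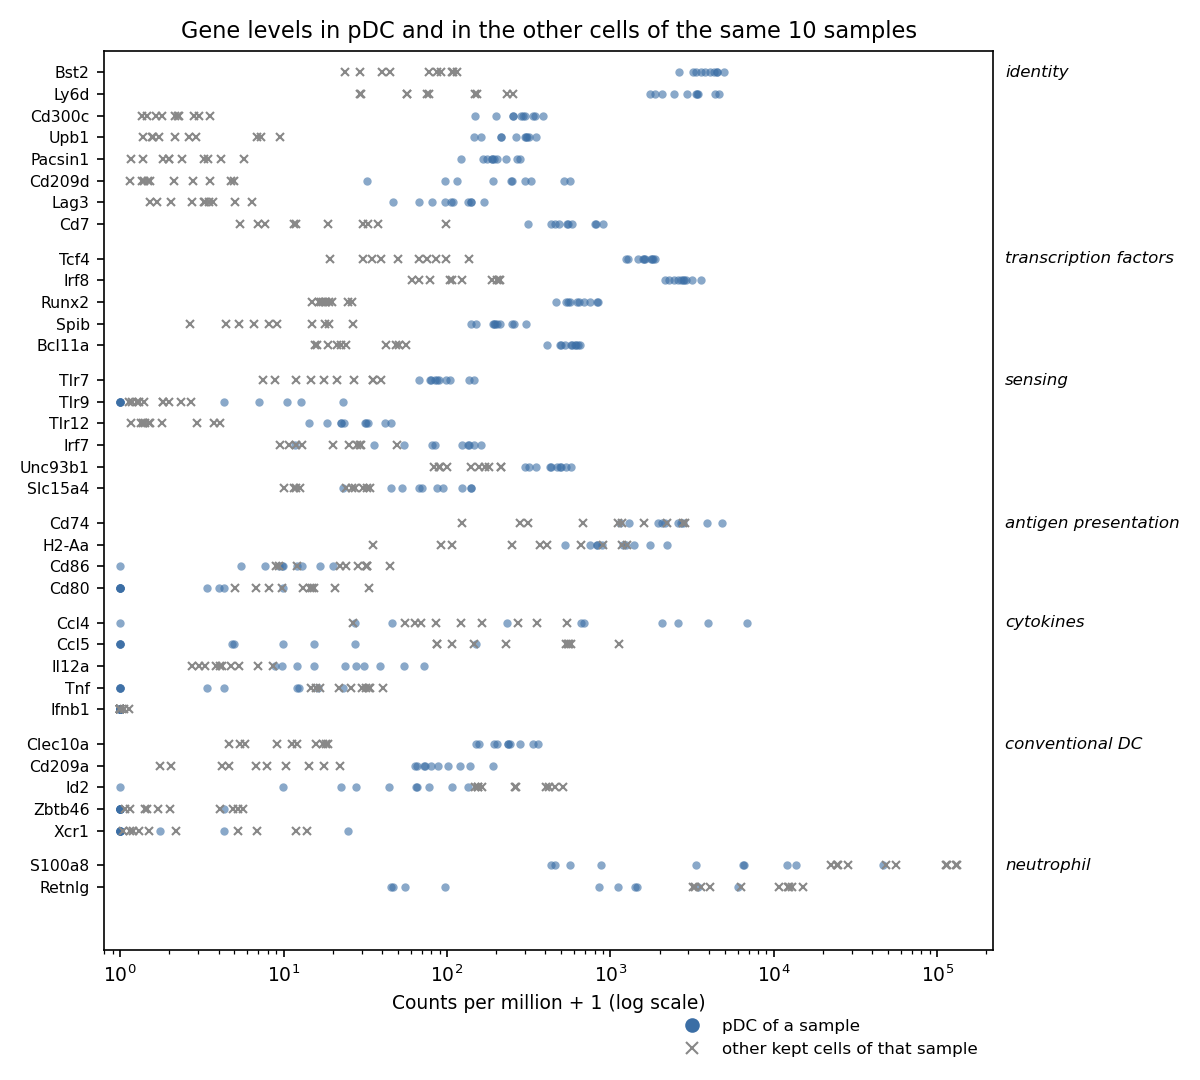
CPM + 1 (log scale) of genes in the pDC of each of 10 samples (dots) and in the other kept cells of the same sample (crosses), grouped by gene list. Identity genes and most lineage factors separate, Ifnb1 lies at 0 in pDC, and S100a8 and Retnlg are higher in the other cells.

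The machinery for sensing nucleic acids was present in part. Tlr7, the receptor for single-stranded RNA, had a UMI in 41.7% of pDC and in 2.72% of T cells (96.2 ± 25.5 CPM, against 20.9 in the other cells), and Tlr12, a mouse receptor for profilin of parasites, stood at 27.4 ± 10.0 against 1.09. The receptor chaperone Unc93b1 (438 ± 92.2 against 143) and the nuclease Pld4 (629 ± 111 against 117) were higher in every sample. Tlr9, the receptor for CpG DNA, had a UMI in only 4.01% of pDC and in 0.0517% of T cells. Irf7, the factor that drives interferon-alpha genes, was at 95.7 ± 50.9 CPM against 21.7 and higher in 9 of 10 samples. Of 16 sensing genes, 7 were higher in every sample, and 10 of the 16 were among the 3616 genes described above, of which 28.4% were higher.

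No RNA of the listed interferon genes was detected. Ifna1, Ifna2, Ifna4, Ifna5, Ifnb1 and Il12b had 0 UMIs in all 573 pDC, which allows up to 0.524% of cells with a UMI for each, and Il6 had a UMI in 0.175%. Of 14 cytokine and chemokine genes, Il12a alone was higher than in the other cells in every sample (28.4 ± 20.7 against 3.69 CPM). Only 1 of the 14 was among the 3616 genes, of which 28.4% were higher, so that share is no like-for-like background here. The receptors for interferon were present: Ifnar1 had a UMI in 58.6% of pDC and Ifnar2 in 84.1%, against 25.5% and 23.9% of T cells. Among 14 measured interferon-stimulated genes, Ifi44 was at 38.2 ± 24.8 CPM against 1.33 and higher in every sample, and the median ratio of the list was 1.01.

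Of 14 genes for protein secretion, 7 were above the other cells in every sample, with a median ratio of 1.47, beside 28.4% and 1.28 for the 3616 genes. Herpud1, a part of the degradation machinery of the endoplasmic reticulum, was at 302 ± 113 CPM against 69.6, and Sec61b, a subunit of the translocation channel, at 1141 ± 136 against 644. Xbp1, a factor of the unfolded protein response, was at 187 ± 44.5 against 121.

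Of 11 antigen presentation genes, 2 were higher and 2 lower than in the other cells in every sample, with a median ratio of 1.36. Among the 3616 genes, which hold 6 of the 11, 28.4% were higher, with a median ratio of 1.28. The class II genes named here were above the other cells in most samples, and the costimulators Cd86 and Cd80 below them. The class II invariant chain Cd74 was at 2537 ± 1121 CPM in pDC and 1318 in the other cells, and H2-Aa, a class II chain, at 1165 ± 517 against 525.7, each higher in 9 of 10 samples. The costimulators Cd86 (9.49 ± 5.43 against 23.6) and Cd80 (1.76 ± 2.85 against 13.2) were higher in 1 and 0 samples. In 576 conventional dendritic cells, with a median of 8688 UMIs, Cd86 had a UMI in 40.5% of cells, against 5.76% of pDC. In T cells the share for Cd86 was 5.10%, so the pDC share is close to that of a class that should lack the gene. For the class II genes the shares were 83.1% of pDC and 18.3% of T cells for Cd74, and 75.4% and 8.12% for H2-Aa. H2-Eb1, also a class II chain, was at 399 ± 254 CPM against 363 and higher in 7 of 10 samples.

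Of 10 genes of conventional dendritic cells, 3 were higher and 4 lower in pDC than in the other cells in every sample. Only 3 of the 10 had a UMI in at least 20% of pDC, so the 28.4% of the 3616 genes with such detection is no like-for-like background for this list. The lectins Clec10a (239 ± 69.5 against 10.8 CPM) and Cd209a (98.1 ± 40.4 against 8.15) were among the 3 higher genes. The growth factor receptor Flt3, which is not 1 of these 10 genes, was also higher in pDC in every sample (150 ± 44.9 against 16.3). The conventional lineage factors Zbtb46 and Batf3 had UMIs in 0.175% and 0.524% of pDC, against 12.7% and 26.6% of conventional dendritic cells. Id2, the inhibitor of E proteins such as Tcf4, was lower in every sample, at 54.4 ± 43.0 against 293.

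Of 9 genes of lymphoid history, 3 were above the other cells in every sample and 2 below them in every sample, with a median ratio of 1.12. Among the 3616 genes, which hold 5 of the 9, 28.4% were higher and 240 genes lower in every sample. Their median ratio was 1.28. The list's count of higher genes was thus close to the share of all these genes. Dntt, the terminal transferase of antigen receptor rearrangement, was at 164 ± 71.2 CPM against 1.73 and had a UMI in 53.8% of pDC and 0.259% of T cells. Il7r (239 ± 32.1 against 44.5) and Blnk, a B cell linker protein (146 ± 38.9 against 11.6), were also higher in every sample. The immunoglobulin light chain genes Igkc (308 ± 301 against 3057) and Iglc2 (77.4 ± 74.0 against 252) had lower means in pDC, and Rag1, the recombinase, had a UMI in 1.22% of pDC.

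Of 13 homing genes, 5 were higher and 2 lower than in the other cells in every sample, and 11 of the 13 were among the 3616 genes, of which 28.4% were higher. The chemokine receptor Cxcr3 was higher in every sample, at 65.0 ± 31.2 CPM against 5.10. The egress receptor S1pr1 was lower in every sample (2.76 ± 4.25 against 20.7), with a UMI in 1.57% of pDC and 42.1% of T cells.

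Transcripts of other cell types were seen in pDC. Of the 573, 253 also met the marker rule of another class (3 of 4 marker genes), of which 196 met that of conventional dendritic cells, whose list holds Clec10a, Cd209a and Flt3, and 68 that of monocytes, whose list holds Ly6c2. Without the conventional dendritic class the number was 97, with 22 meeting the neutrophil, 11 the T cell and 5 the B cell rule. All 10 neutrophil markers were lower in pDC than in the other cells in every sample. Among the 3616 genes, which hold 6 of these 10, 240 were lower in every sample. The summed level of the neutrophil markers in pDC nevertheless ran from 1316 to 115520 CPM, highest in biotin negative bone replicate 3. No cells were removed as doublets, and 53 pDC (9.25%) were in the top 5% of Scrublet doublet scores.

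Genes that varied strongly among the pDC of a sample included Malat1, Cd74, Ccl4, Ly6d and the rule gene Klk1. In the 6 samples with at least 40 pDC, 8051 genes were ranked by their variance beyond counting noise, and the median gene had a residual variance of 1.03. Cd74 was at 10.6, the chemokine gene Ccl4 at 10.0, Ly6d at 9.68, Klk1 at 8.47, H2-Aa at 7.28 and Ifi27l2a, an interferon-inducible gene, at 5.82. Malat1, a nuclear noncoding RNA, led with 11.4, and S100a8 was at 5.38.

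Some of these variable genes moved together from cell to cell. The class II genes were the tightest, with a mean Spearman rho over the 6 samples of 0.827 for Cd74 with H2-Aa and 0.806 for H2-Aa with H2-Ab1. Klk1 and Klk1b27 gave 0.630. Ly6d, in contrast, ran against Cd209d (-0.234), and Ifi27l2a against Siglech (-0.206). Klk1 and Siglech are rule genes, so the choice of cells can shape the values of their pairs. How reads were split between Klk1 and Klk1b27 is also uncertain. Cells of 1 sample share their library, depth affects each pair, and these values are descriptions without a test.

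**Figure D4:**
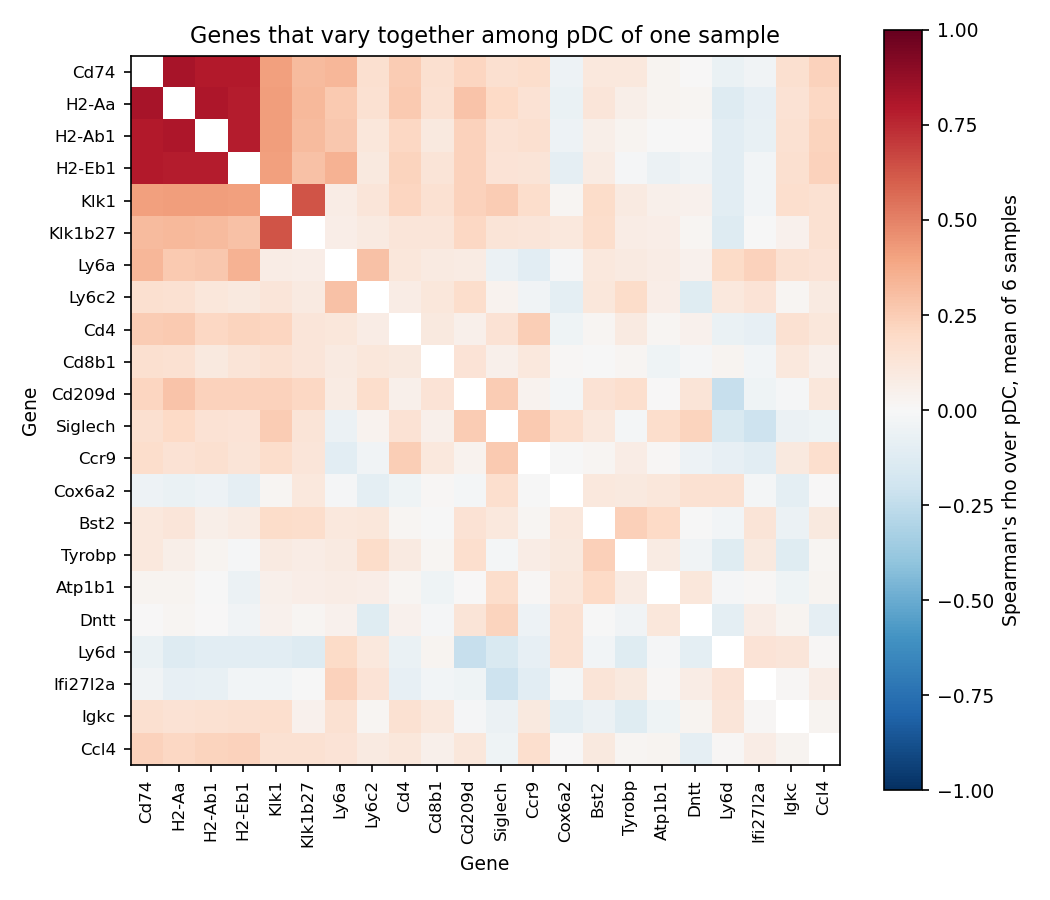
Spearman correlation between variable genes across pDC, averaged over the 6 samples with at least 40 pDC. The class II genes Cd74, H2-Aa, H2-Ab1 and H2-Eb1 form a block between 0.784 and 0.827.

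Cells with several cell cycle transcripts were found among pDC of bone and brain. A cell was counted as cycling with UMIs for at least 4 of 10 cell cycle genes, such as Mki67 and Top2a. In biotin negative bone 17 of 289 pDC met this (5.88%, exact 95% interval 3.46 to 9.25), in biotin negative brain 5 of 63 (7.94%, 2.63 to 17.6), and in biotin negative liver 0 of 158 (0 to 2.31). Biotin positive bone held 2 of 14 (14.3%, 1.78 to 42.8) and biotin positive liver 0 of 19 (0 to 17.6). Lung held 0 of 20 negative (0 to 16.8) and 0 of 9 positive pDC (0 to 33.6). In bone, 13 of the 17 were in replicate 1, and all 5 of brain were in replicate 1. The bone cells that met the count had a median of 8576 UMIs, against 5577.5 in the rest. That median was set by replicate 1 (8507 against 5785). In replicate 3 the 3 such cells had a median of 37509 UMIs against 4798, and the single one of replicate 4 held 15286 against 5814.5. Whether these deep barcodes hold more than 1 cell was not tested here. With 3 genes required, the numbers were 21, 5 and 0 in these groups. At that count, after every cell was thinned to 2000 UMIs, they were 16 of 288, 4 of 61 and 0 of 157, and without thinning the biotin negative IIA bone samples held 11 of 231 at 3 genes and 8 at 4. The intervals cover counting error only, and shares were not tested over samples.

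Ccl4, which encodes the chemokine MIP-1beta, split the samples. Among biotin negative pDC it had a UMI in 25.6% of those from bone, 71.4% from brain, 57.0% from liver and 19 of 20 from lung. After thinning to 2000 UMIs these shares were 13.5%, 57.4%, 49.7% and 85.0%. In 4269 B cells, with a median of 2560 UMIs, the share was 5.08%. Within biotin negative liver, cells with at least 10 Ccl4 UMIs numbered 0 of 66, 27 of 45 and 31 of 46 in replicates 1 to 3 and held 97.2% of the group's Ccl4 UMIs. Biotin positive liver followed the same replicates, with Ccl4 in 0 of 13 pDC of replicate 1 and 5 of 5 of replicate 3. In the other cells of the same negative liver samples Ccl4 was at 68.7, 357 and 544 CPM, and whether a shared factor moved both was not tested.

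With counts summed over the pDC of each sample, no gene passed the test between biotin negative bone and the mean of brain and liver. This comparison used bone replicates 1 to 4, brain replicates 1 and 4 and liver replicates 1 to 3, each with 15 to 200 pDC and 93402 to 1319702 UMIs, and lung had too few pDC to enter. Of 4485 genes outside the rule, edgeR's quasi-likelihood test called 0 (0.0%) at an adjusted p under 0.05, and 214 (4.77%) were under 0.05 before adjustment. DESeq2 called Ier5 and Trib1, 2 genes induced early after stimulation, both lower in bone. A replicate block in the edgeR model gave 2 calls, Hspa1b and Hspa1a, which encode heat shock proteins, both lower in bone. Without the block, Hspa1b differed by -3.57 on the log2 scale, and by 0.88 when brain replicate 1 was left out. Without the filter on low counts 115 genes were called, among them Ccl4, Jun, Hspa1b, Ly6a, Cd8b1, Mki67, Top2a, S100a8 and 3 class II genes, so these calls depend on that filter. With the filter and without the block the smallest adjusted p was 0.600. Samples of the 2 sides did not overlap for 1.4% of genes (0.669% higher and 0.736% lower in bone).

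The factors of the lineage had close values in the 3 tissues. Tcf4 was at 1807, 1752, 1345 and 1431 normalised CPM in bone, in the brain samples 1729 and 1502, and in the liver samples 1643, 1626 and 1948, a log2 difference of -0.07 ± 0.15 (SE, edgeR adjusted p = 1.0). Irf8 differed by -0.15 ± 0.14 and Bst2 by -0.18 ± 0.17. None of the 8 factors had an unadjusted p under 0.05, and 2 of 19 identity genes had (both lower in bone), against 2.01% of all genes. Cd300c was 1 of them, at 159 to 271 in bone and 283 to 376 elsewhere (log2 difference -0.49 ± 0.20, edgeR adjusted p = 0.994).

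Class II values were lower in bone without passing the test as planned. H2-Aa was at 1156, 733, 574 and 805 normalised CPM in bone, in the brain samples 840 and 1164, and in the liver samples 1803, 1438 and 2427. Bone and brain overlapped, and the liver samples were the 3 highest. The log2 difference was -0.74 ± 0.23 (SE, edgeR adjusted p = 0.812), and Cd74 gave -0.73 ± 0.25 (adjusted p = 0.873). Of 7 antigen presentation genes tested, 4 had an unadjusted p under 0.05, all with lower values in bone, beside 2.01% of all genes in that direction, and the list's median was -0.73, against 0.04 for all genes. Over the alternatives run, the difference ran from -1.14 (bone against liver alone) to -0.26 (without pDC of another class, a rule that itself uses H2-Ab1) for H2-Aa, from -1.24 to -0.34 for H2-Ab1 and from -1.16 to -0.34 for Cd74. Without the filter on low counts the 3 genes passed, with edgeR adjusted p of 0.0238 for H2-Aa, 0.0071 for H2-Ab1 and 0.0152 for Cd74; over the other alternatives the adjusted p of H2-Aa was at least 0.0992 (DESeq2). Cd209a, a marker of conventional dendritic cells, had a difference of -0.77 ± 0.26 (adjusted p = 0.873), and the summed level of 5 B cell markers was 66.8 to 130 CPM in bone and 43.3 to 222 elsewhere; their part in the class II values was not tested.

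Ccl4 values were spread widely. Its level was 637, 673, 251 and 25.4 normalised CPM in bone, in the brain samples 1938 and 2417, and in the liver samples 46.7, 4034 and 7464. Liver replicate 1 lay among the bone samples and the others far above them, and the log2 difference of -2.83 ± 0.92 did not pass (edgeR adjusted p = 0.873). Without liver replicate 1, 7 genes were called, all lower in bone: Trib1, Rgs1, Ier5, Zfp36, Ccl4, Fos and Map3k8. Of 7 immediate early and stress genes 5 had an unadjusted p under 0.05, with lower values in bone and a median of -1.28, beside 2.01% and 0.04 for all genes. Jun was at 422, 186, 169 and 144 in bone, in the brain samples 775 and 358, and in the liver samples 755, 560 and 1633 (log2 difference -1.63 ± 0.37, adjusted p = 0.600).

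Of 6 tested genes that mark pDC subsets, 2 had an unadjusted p under 0.05, both with lower values in bone, beside 2.01% of all genes in that direction, and the median log2 difference was -0.26. These were Ly6a and Cd8b1, while Cd9 (0.66) and Ly6c2 (0.10) had positive values. Ly6a was at 342, 155, 304 and 25.4 normalised CPM in bone, in the brain samples 499 and 159, and in the liver samples 664, 478 and 1201 (log2 difference -1.22 ± 0.46, edgeR adjusted p = 0.927). Cd8b1 stood at 8.63 to 38.7 in bone, in the brain samples 29.8 and 53.8, and in the liver samples 82.0 to 225 (-1.43 ± 0.41, adjusted p = 0.772). For both genes bone and brain overlapped, and the highest samples were from liver. Klra17, a lectin-like inhibitory receptor, gave -0.70 ± 0.25 (adjusted p = 0.921).

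Cell cycle genes had higher values in bone than in the mean of brain and liver, without passing the test. Against brain alone, Mki67 differed by -0.28 and Top2a by 0.015 on the log2 scale. Mki67 was at 125, 4.31, 125 and 127 normalised CPM in bone, in the brain samples 187 and 0, and in the liver samples 0, 6.83 and 4.32, a log2 difference of 2.26 ± 0.81 (SE, edgeR adjusted p = 0.927). Bone replicate 2 lay with the liver samples and brain replicate 1 with bone. All 7 cell cycle genes tested had positive differences and 5 an unadjusted p under 0.05, against 2.76% of all genes in that direction. Neutrophil genes had values in the same direction: 8 of 10 had an unadjusted p under 0.05, with a median log2 difference of 3.04, and their summed level was 1975 to 115520 CPM in bone pDC and 1316 to 31165 elsewhere. Of 5 monocyte markers tested, 3 had an unadjusted p under 0.05, all higher in bone, with a median of 1.02. The summed level of 6 monocyte markers was 1624 to 3584 CPM in bone pDC and 867 to 3440 elsewhere. The part of the neutrophil and monocyte genes in the other values was not tested.

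**Figure D5:**
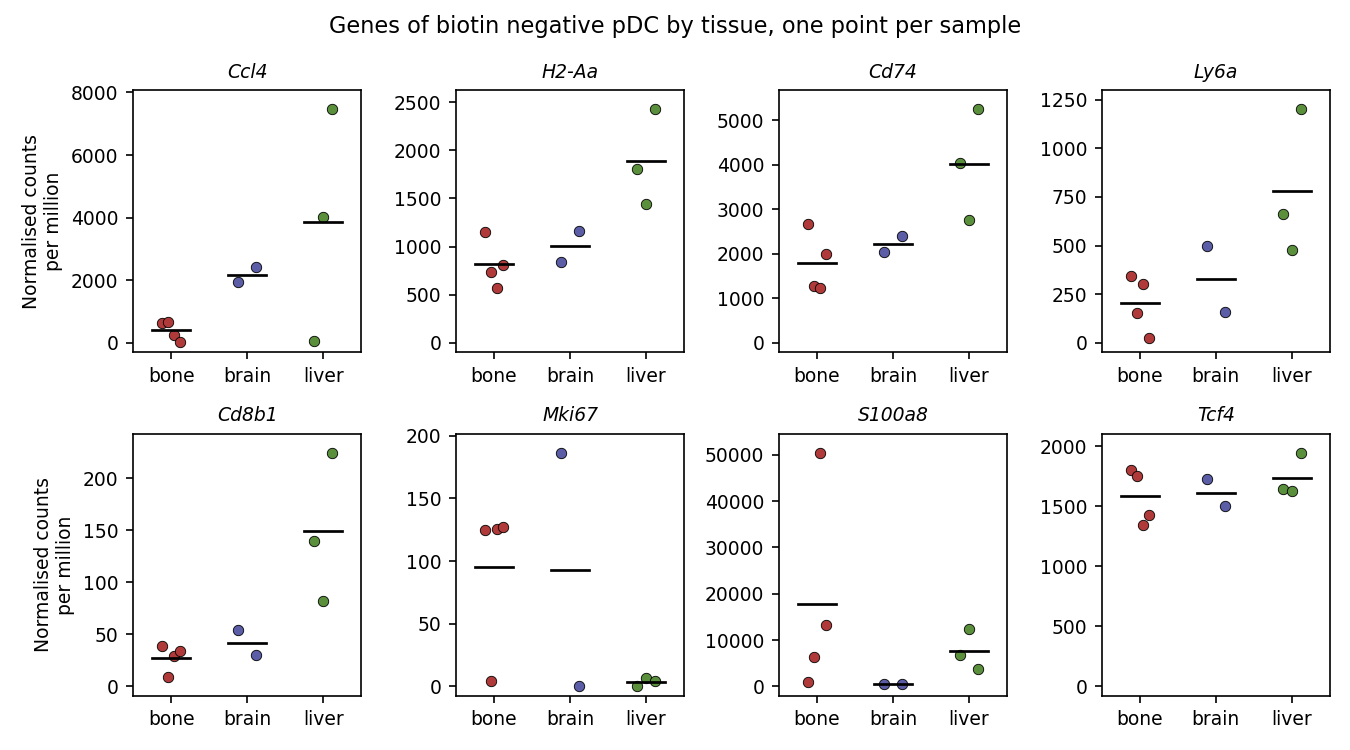
Normalised CPM of selected genes in the summed pDC of each biotin negative sample (points), by tissue, with group means (lines). Tcf4 lies between 1345 and 1948 in every tissue, and Ccl4 in liver spans 46.7 to 7464.

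Between sorts, pDC could be compared in bone and liver alone, from 3 biotin positive samples (bone replicate 1, liver replicates 1 and 3) against 7 negative ones, with at least 5 pDC and 22529 UMIs each and tissue in the model. Of 6184 genes, edgeR called 0 (0.0%), DESeq2 called 0 as well, and 446 (7.21%) were under 0.05 before adjustment. Of the 446, 89 were higher and 357 lower in positive samples, and for 7.24% of genes the samples did not overlap (0.792% higher, 6.45% lower). With the replicate number as a block 3 genes were called: the histone gene Hist1h1a was higher, and S100a8 and Retnlg, neutrophil genes, were lower. Hist1h1a was highest in bone positive replicate 1, which holds 8 pDC, at 224 normalised CPM, against 0 and 31.7 in the liver positive samples and 0 to 73.9 in the negative ones. Without that sample and without the block its log2 difference was 2.68, against 3.31 with it, and its adjusted p 0.972 (edgeR). Without the filter on low counts 42 genes were called, among them these 3, Vpreb3, Upb1 and H2-Aa (adjusted p = 0.0495). With the filter and without the block the smallest adjusted p was 0.092, for Vpreb3, a gene of early B cells, which rested on bone positive replicate 1 (209 normalised CPM, against 0 to 4.62 in all other samples).

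Several identity genes had lower values in positive pDC without passing the test. Upb1 was at 29.9 in bone positive replicate 1, 134 and 158 in the liver positive samples, 190 to 318 in negative bone and 234 to 396 in negative liver. The positive samples were all below the negative ones, yet the log2 difference of -1.51 ± 0.36 missed the threshold (SE, edgeR adjusted p = 0.540). Of 19 identity genes 7 had an unadjusted p under 0.05, all lower, against 5.77% of all genes in that direction; the list's median was -0.40 and that of all genes -0.12. Of the 8 lineage factors 5 had negative and 3 positive differences, with a median of -0.12, and 1 had an unadjusted p under 0.05. Tcf4 (-0.37 ± 0.19), Irf8 (-0.38 ± 0.18) and Bcl11a (-0.24 ± 0.20) had positive samples below all negative ones. These were 3 of the 8 factors, beside 6.45% of all genes. Spib (0.38 ± 0.31) and Cbfa2t3 (0.32 ± 0.29) had positive differences.

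All 7 antigen presentation genes tested had negative differences between sorts, and 3 an unadjusted p under 0.05, beside 5.77% of all genes in that direction, with a median of -0.80. H2-Aa was at 627 in bone and 765 and 1014 in liver positive samples, against 628 to 1242 in negative bone and 1538 to 2530 in negative liver (log2 difference -0.80 ± 0.26, edgeR adjusted p = 0.671). For H2-Aa the positive liver samples lay below all negative liver samples. H2-Ab1 differed by -0.36 ± 0.30 (adjusted p = 0.842), and its level of 552 in bone positive replicate 1 lay inside the 380 to 733 of negative bone. S100a8 was at 627, 424 and 666 in positive pDC and 900 to 55269 in negative pDC (-4.23 ± 0.92, adjusted p = 0.337). The summed neutrophil markers were 1542 to 3063 CPM in positive and 1975 to 115520 in negative pDC. What they contribute to the lower or higher values of other genes was not tested. In liver positive replicate 1 the hepatocyte gene Alb was at 186 normalised CPM, against at most 2.66 in the negative samples. The same sample had the highest sum of 5 T cell markers, 311 CPM against 13.4 to 144 in the negative samples (0 and 88.8 in the other positive ones), with Cd3d at 134 normalised CPM against at most 30.6. The sum of 5 B cell markers was 155 to 277 CPM in positive and 43.3 to 222 in negative pDC. The part of these markers in the differences between sorts was not tested.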

How the data were processed

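Single-cell 3′ libraries multiplexed with CellPlex gave 32 matrices of UMI counts over 32285 genes, deposited by the authors as Cell Ranger output (version 6.1.2 per the file headers; mm10 and Seurat per the submitters' processing notes). A pooled 5′ matrix of counts (Cell Ranger 7.1.0 per the file headers) held the 12 IIA samples; a barcode was given to a hashtag with at least 10 counts and 3 times those of the next, which assigned 22685 of 26666. The smallest deposited barcode held 500 UMIs. The pDC, markers and gene lists were chosen with earlier results of these data known.

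Shares of kept cells were compared by two-sided exact permutation tests over samples. Counts were summed per sample over pDC (at least 10 between tissues, 5 between sorts) and tested with edgeR 4.0.16 (filterByExpr, TMM, quasi-likelihood, Benjamini-Hochberg over all genes), with DESeq2 1.42.0 as an alternative, under R 4.3.3. Normalised CPM are TMM-scaled. Scripts were tested on simulated data with the same spread for all genes. Of genes changed by 1 on the log2 scale, 14.1% were recovered between tissues and 0.581% between sorts. For a change of 2 these shares were 93.7% and 55.6%. A count of 0 called genes thus does not show that pDC were alike. Genes were named as called with samples that do not overlap, as the 20 largest ratios against other cells, and as members of 15 lists; others named were chosen after their values were seen. Cells with at least 3 of the first 4 markers of a class were put in it. Scanpy 1.11.5 computed doublet scores on each sample. Deviations of same-numbered positive and negative samples from their group means correlated over genes at 0.326 to 0.772 in bone, brain and liver, and at -0.217 to 0.585 in lung. Values of a few listed genes are not reported here.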

Additional observations from a re-analysis of the deposited data

Results flagged for a closer look

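The pDC share of biotin positive brain replicate 1, 0.181%, was the only value above 0 in its group, and it rests on a single cell. With 3 samples at 0 any value above 0 is picked out, and those counts of 0 allow shares of up to 0.444%, 0.968% and 0.448%, so the sample is not shown to differ. Of 10 groups examined for a distant sample it was the only one picked out. Chance gives about 1 in 20 for each group examined, so 1 pick among 10 groups is not unusual.

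Barcodes of the IIA bone matrix without a hashtag call were used in no comparison. Among 3824 of them that passed the cell filters, 44 met the pDC rule, or 1.15% (exact 95% interval 0.837 to 1.54, counting error only). Among barcodes with a call the pooled shares were 1.32% of negative and 0.102% of positive cells (231 of 17473 and 5 of 4889). The 44 pDC without a hashtag call had a median of 5156.5 UMIs, and 19 of the 44 held at least 3 neutrophil markers.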

How the results depend on the processing

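The sign of the share differences held under every alternative run except 1: with at least 2 of 4 rule genes, brain was +3.14 percentage points (exact permutation p = 0.229), where 96 biotin positive cells held 2 of the genes. edgeR on cell numbers gave -3.02 in bone and -3.81 in brain, and with the replicate block -2.90, -3.90 and -2.06 (liver), all past the threshold; outside neutrophils the bone difference from other tissues was 3.12. Sign flips of the pairs cannot go below 0.125 with 4 pairs; for IIA they gave 0.0312. Leaving out 1 sample, differences ran from -2.89 to -0.801 (bone), -0.921 to -0.267 (brain), -1.78 to -0.823 (liver), -0.122 to -0.0520 (lung), 0.235 to 2.32 (bone against other tissues) and -1.30 to -1.08 (IIA). Between tissues, called genes numbered 0; they were 2 with DESeq2, 115 without the filter on low counts (81 higher, 34 lower), 2 with the replicate block (Hspa1b and Hspa1a), 1 for bone against liver (Slamf9) and 0 to 7 on leaving out 1 sample. Across tissues same-numbered negative samples deviated together in 22 of 24 cases (correlation over 0.1), not in bone and brain numbers 1 and 3, so the numbers were not taken as pairs there. Between sorts they were 42 without the filter, 3 with the block and 0 to 3 on leaving out 1 sample, 3 without bone negative replicate 1 (Retnlg, S100a8, S100a9). Signs turned for Tcf4 (0.0405 with 4 of 4 rule genes, 0.0562 without pDC of another class, 0.0508 with conventional dendritic cells kept), Irf8 (0.0920 with at least 5 pDC, 0.0069 for bone against liver), Mki67 (-0.28 for bone against brain) and Hspa1b (-7.74 to 0.88 on leaving out 1 sample, 0.88 without brain negative replicate 1); the cause was not tested. Fits between sorts with at least 10 pDC, with 4 of 4 rule genes or without pDC of any other class could not be run, with under 2 positive samples, nor could a gene test in IIA, where no positive sample held 5 pDC. The comparison of sorts rests on few cells, as 43 pDC were biotin positive.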
